A study of Drosophila melanogaster with 6 samples.

Results

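The genes described here are 9 genes of the microtubule cytoskeleton: tau, Atat, futsch, the alpha-tubulin genes alphaTub84B, alphaTub84D and alphaTub85E, and the beta-tubulin genes betaTub56D, betaTub60D and betaTub85D. They were chosen by name, with the falls of tau and of 1 Atat probe set in sage mutants already known, so the mutant minus wild type values of tau and Atat are given as a description and carry no test. A probe set is the group of short probes on an array that reports a transcript. The members were found through the platform's gene annotation, out of 11982 genes that a probe set names alone. 8 of the 9 genes were measured, by 11 probe sets. No probe set names alphaTub84B in the annotation used here, and none that names several genes holds a member.

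RNA was taken from whole Drosophila melanogaster embryos of stages 11 to 16, the period in which the salivary glands form and mature. The wild type group was 3 samples of Oregon R, a standard laboratory strain, and the other group was 3 samples of age-matched embryos labelled as sage mutant. The sage gene encodes a bHLH protein that regulates transcription in the salivary gland of the embryo, and the title of the series names the targets of this factor as its question. The allele of sage, its strain background and the origin of each replicate are not stated in the labels. A difference in strain and the loss of sage therefore cannot be told apart, and the p-values rest on a spread between samples that may be technical only. Each sample was hybridised to 1 Affymetrix array, and all levels below are log2 signals, on which a difference of 1 is a doubling.

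Microtubules are hollow tubes built from pairs of alpha- and beta-tubulin. tau binds along their wall and is best known from axons, and its human counterpart forms the tangles of Alzheimer's disease. Atat is the enzyme that acetylates a lysine of alpha-tubulin on the inside of the tube, a mark of long-lived microtubules. futsch is the fly relative of MAP1B, a large microtubule-binding protein of neurons. The tubulin genes differ in where they are used: alphaTub84B, alphaTub84D and betaTub56D serve most cells, betaTub60D is known from developing muscle, alphaTub85E from muscle and some sense organs, and betaTub85D from the testis. RNA of whole embryos mixes all these tissues, so fewer cells of a type and less RNA per cell cannot be told apart.

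The arrays had medians between 5.89 and 6.01. Among the wild type arrays, replicate 2 stood apart, with a mean correlation of 0.977 with its group, where replicates 1 and 3 had 0.986 and 0.985. Control transcripts gave less 5′ signal on the mutant arrays, with a mean 5′ minus 3′ difference of −1.84 ± 0.08 in wild type and −3.68 ± 0.61 in the mutants (SD, n = 3 each). sage, the mutated gene, had a mean of 8.25 ± 0.34 in wild type and 5.28 ± 0.16 in the mutants (SD, n = 3 each). Of 17 probe sets for 8 salivary gland marker genes, 10 fell (58.8%) and none rose at an adjusted p under 0.05. Over all probe sets, 1.93% fell at that threshold. The markers were chosen with earlier results of these data known and include sage itself, so their share is a description only. The 10 belong to sage, PH4alphaSG1, PH4alphaSG2, Papss and pip, and pip alone holds 6 of them. The markers fkh, sens and eyg had no probe set past the threshold.

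tau had the greatest change of the 11 member probe sets, and the greatest spread within a group. The 3 wild type arrays, in order of replicate number, had log2 signals of 8.99, 7.18 and 8.84, and the 3 mutant arrays had 5.004, 5.11 and 5.13. Values are given in this order throughout. The groups did not overlap: the lowest wild type array, replicate 2, lay well above every mutant array, and the mutant arrays lay close together. The means were 8.34 ± 1.01 in wild type and 5.08 ± 0.07 in the mutants (SD, n = 3 each). tau (CG45110, chromosome arm 3R) was thus 9.54-fold lower in the mutants, a log2 difference of −3.25 (SE 0.46, 95% interval −4.36 to −2.15). Of the 18769 probe sets tested, 15 had a log2 difference as low, tau included.

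The wide interval of tau came with a single array. Wild type replicate 2 lay 1.74 below the mean of the other two wild type arrays, and the standard deviation of tau in wild type was reached by 1.33% of all probe sets. Without that array the log2 difference of tau was −3.83 (SE 0.11), and without any other single array it lay between −3.28 and −2.93. The mutant mean of tau lay within the range of 12 probe sets for larval glue genes in wild type, 3.76 to 5.79. The gland makes these much later, and detection above background was not assessed, so the fold of tau is not exact.

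Atat was read by 2 probe sets, called Atat P and Atat Q here, and they did not behave alike. Atat Q had 9.86, 9.67 and 9.73 in wild type and 8.59, 8.46 and 8.43 in the mutants. The groups were tight and far apart, and every mutant array was lower. The means were 9.75 ± 0.10 and 8.49 ± 0.09 (SD, n = 3 each), so that this signal was 2.40-fold lower in the mutants, a log2 difference of −1.26 (SE 0.10, 95% interval −1.50 to −1.02). With each of the 6 arrays left out in turn, the difference was −1.31 to −1.21.

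Atat P had 8.88, 8.79 and 8.93 in wild type and 9.14, 8.89 and 8.78 in the mutants. Here the groups overlapped, and the log2 difference was 0.07 (SE 0.12, 95% interval −0.22 to 0.36), an interval that does not hold the −1.26 of Atat Q. The files do not say which transcripts or which part of Atat each probe set matches.

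**Figure D1:**
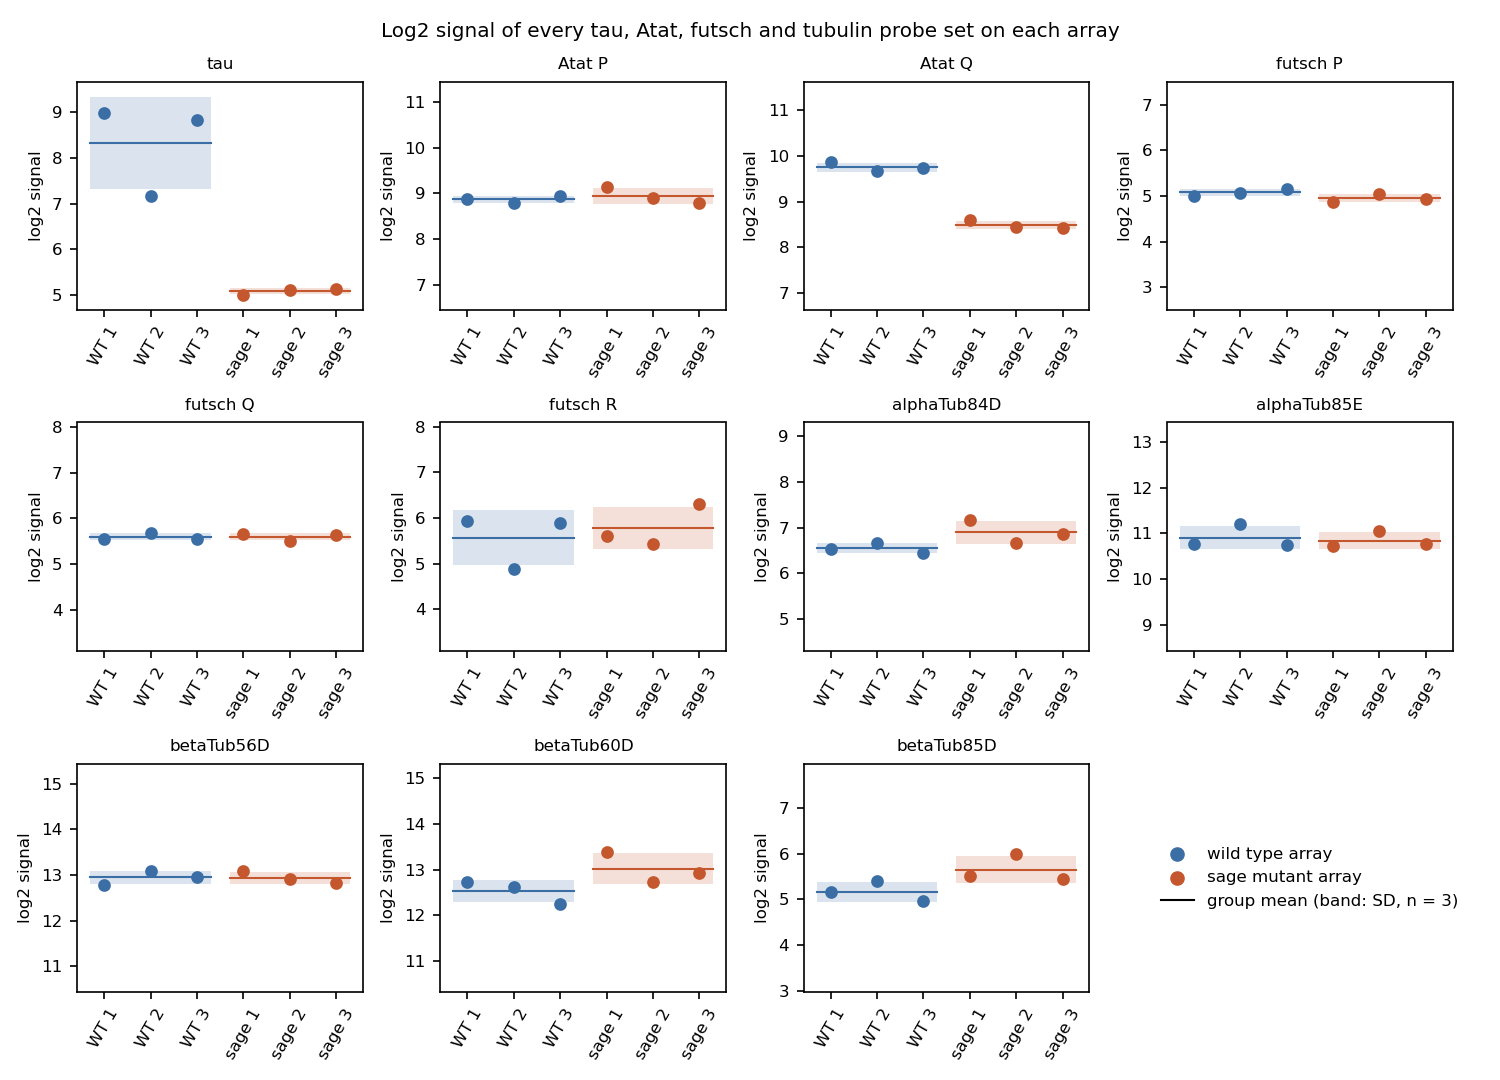
Log2 signal (vertical axis, 5 units high in every panel) of the 11 member probe sets on each array (horizontal axis, WT for wild type and sage for the mutants, replicates 1 to 3), with lines for group means and bands for the standard deviation (n = 3). tau and Atat Q are lower on all 3 mutant arrays, and tau on wild type replicate 2 (7.18) is lower than on the other wild type arrays.

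A split of this kind within a gene was seen elsewhere on the arrays. 1094 genes had several probe sets, and the range of the change among the probe sets of a gene had a median of 0.30. The range for Atat was 1.33, and 53 of these genes (4.84%) had a range at least as wide. Of the 115 genes with at least 1 called probe set, 107 (93%) had another that was not called. futsch, with a range of 0.34, lay near the middle of the genes, since 45.7% had a range at least as wide.

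**Figure D2:**
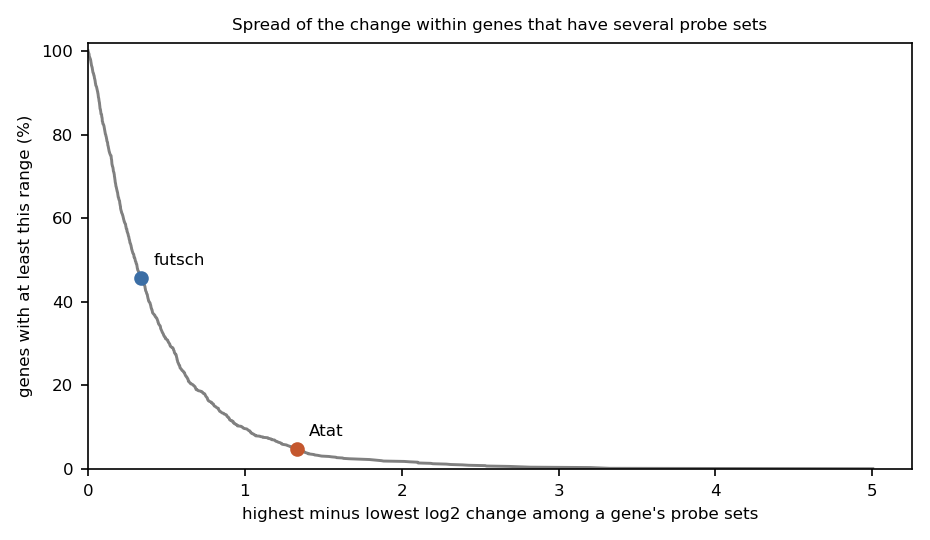
For the 1094 genes with several probe sets, the share (vertical axis, percent) whose highest minus lowest log2 change (horizontal axis) is at least a given size. Atat, at 1.33, is exceeded or matched by 4.84% of the genes, and futsch, at 0.34, by 45.7%.

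The other 6 measured genes, with 8 probe sets, gave no call. Their adjusted p-values lay between 0.234 and 0.991 in limma's fit over all probe sets, 1 had an unadjusted p under 0.05 (betaTub85D), and their log2 differences lay between −0.13 and 0.49. In all, 2 of the 11 member probe sets were called, both lower, where 4.03% of all probe sets were called in either direction and 1.93% were called lower. Because the choice of members used this contrast, nothing is read from that count. The groups did not overlap at 4 of the 11, those of tau, the Q probe set of Atat, betaTub60D and betaTub85D, against 24.4% of all probe sets.

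futsch was dim at all 3 of its probe sets. The first, futsch P, had 5.01, 5.07 and 5.15 in wild type and 4.87, 5.05 and 4.93 in the mutants, a log2 difference of −0.13 (95% interval −0.36 to 0.11). The next, futsch Q, had a mean of 5.59 ± 0.08 in wild type and 5.60 ± 0.08 in the mutants (SD, n = 3 each), a difference of 0.005 (95% interval −0.22 to 0.23). The groups overlapped at both, and these means were all within the glue gene range.

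The third, futsch R, varied more. It had 5.94, 4.88 and 5.89 in wild type and 5.61, 5.43 and 6.30 in the mutants. Wild type replicate 2 was the lowest of the 6 arrays, and the groups overlapped. The difference was 0.21 (95% interval −0.63 to 1.05), and it was −0.14 without that array. The interval of this probe set holds a 2-fold rise.

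alphaTub84D, on chromosome arm 3R, encodes an alpha-tubulin nearly identical in sequence to that of alphaTub84B, so its single probe set may carry signal from both genes. It had 6.53, 6.67 and 6.45 in wild type and 7.17, 6.66 and 6.86 in the mutants. Mutant replicates 1 and 3 were above all wild type arrays and mutant replicate 2 was not. The log2 difference was 0.35 (SE 0.15, 95% interval −0.01 to 0.71).

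alphaTub85E had 10.77, 11.21 and 10.74 in wild type and 10.71, 11.05 and 10.76 in the mutants. In each group replicate 2 was the highest array, and the groups overlapped throughout. The log2 difference was −0.07 (SE 0.16, 95% interval −0.46 to 0.33), an interval that corresponds to mutant levels between 0.726 and 1.25 times those of wild type.

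betaTub56D, the beta-tubulin of most cells, had 12.79, 13.08 and 12.96 in wild type and 13.08, 12.92 and 12.82 in the mutants. The groups lay over each other, with means of 12.94 ± 0.15 and 12.94 ± 0.13 (SD, n = 3 each). The interval of the difference, −0.29 to 0.28, corresponds to mutant levels between 0.816 and 1.22 times those of wild type.

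betaTub60D, the beta-tubulin of developing muscle, had 12.73, 12.62 and 12.25 in wild type and 13.40, 12.74 and 12.94 in the mutants. Every mutant array was above every wild type array, but mutant replicate 2 was above wild type replicate 1 by only 0.004. The log2 difference was 0.49 (SE 0.21, 95% interval −0.005 to 0.99). Muscle markers stand beside it. Of 16 probe sets for 9 genes, 1 rose and none fell (6.25%, against 4.03% of all probe sets). The one that rose was that of Mp20, a calponin-like muscle protein, at 2.30-fold (limma adjusted p = 0.0371). The median log2 difference of the list was 0.32, against −0.03 over all probe sets. The summed log2 signal of the muscle markers was 134.95 to 151.32 in wild type and 149.91 to 154.16 in the mutants. The Mp20 call was lost when any of 4 single arrays was left out (wild type replicates 1 and 3, mutant replicates 2 and 3), at adjusted p-values of 0.0866 to 0.163. Without wild type replicate 2, on which these markers were lowest, the median of the list was 0.01, against −0.01 over all probe sets, and betaTub60D had a log2 difference of 0.53. The part of these markers in the value of betaTub60D was not tested.

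betaTub85D, the beta-tubulin known from the testis, had 5.16, 5.40 and 4.96 in wild type and 5.52, 6.001 and 5.44 in the mutants. All mutant arrays were above all wild type arrays. The means, 5.17 in wild type and 5.65 in the mutants, were both within the glue gene range of wild type, 3.76 to 5.79. The log2 difference was 0.48 (SE 0.19, 95% interval 0.03 to 0.93). Of 15 probe sets for 13 testis and germ line genes, none passed limma's test and 1 had an unadjusted p under 0.05. That was 1 of the 3 probe sets of osk, which organises the germ plasm, with a log2 difference of 1.27. The range of the change among the 3 osk probe sets was 1.19, so they did not behave alike. The next gene, nanos, had 0.60. The summed log2 signal of these testis and germ line markers was 73.66 to 77.24 in wild type and 76.38 to 80.43 in the mutants. Their part in the value of betaTub85D was not tested.

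**Figure D3:**
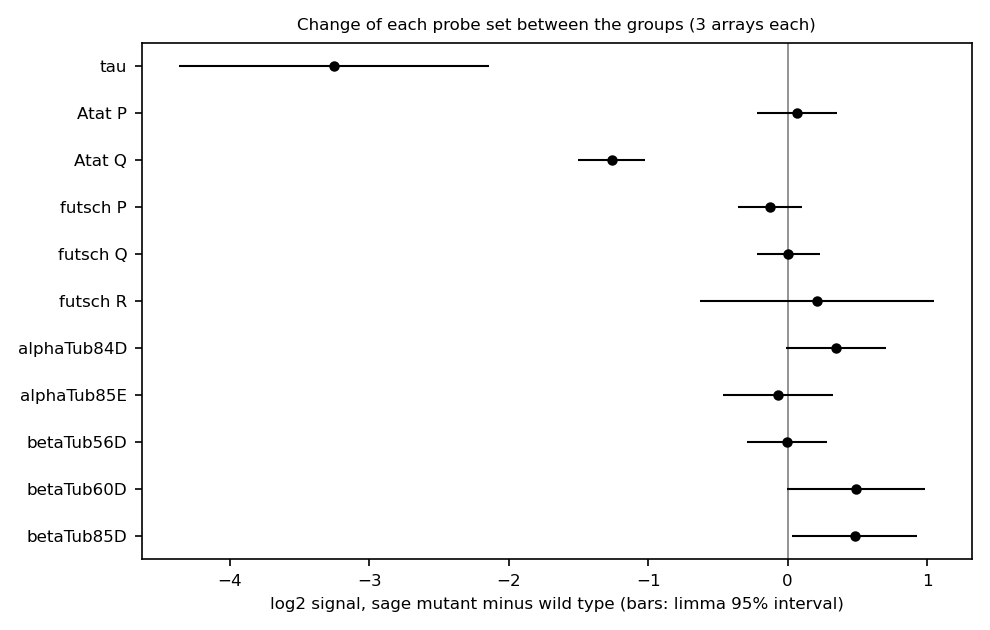
Log2 difference, sage mutant minus wild type (horizontal axis), of each member probe set, with limma's 95% interval as bars (3 arrays a group). tau at −3.25 and Atat Q at −1.26 lie far from 0, and the 5 tubulin probe sets lie between −0.07 and 0.49.

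Because tau and futsch are known from neurons, markers of neurons and glia were set beside them. Of 18 probe sets for 14 genes, 1 rose and none fell (5.56%, against 4.03% of all probe sets). The median log2 difference was −0.01, against −0.03 over all probe sets. The one that rose was a probe set of cpx, which encodes complexin, a regulator of transmitter release, at 2.30-fold (limma adjusted p = 0.0305), while the other cpx probe set had a log2 difference of 0.14. With replicate number as a block, cpx had a limma adjusted p of 0.064, and pros, a neural transcription factor named after its value was seen, was called in its place, with a log2 difference of −0.86. The cpx call was also lost when any of these 4 arrays was left out: wild type replicates 1 and 3, and replicates 2 and 3 of the mutants, at adjusted p-values of 0.0531 to 0.149. The summed log2 signal of the neural markers was 141.43 to 151.08 in wild type and 143.60 to 148.64 in the mutants, so the groups overlapped. Without wild type replicate 2 the median of the list was −0.22, against −0.01 over all probe sets. The lowest log2 difference of the list was that of repo, a glial gene, at −0.94, which was called only under some other settings. The part of these markers in the value of tau was not tested.

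The same lists describe wild type replicate 2. The mean log2 signal of the neural markers was 8.39, 7.86 and 8.19 on the wild type arrays, and that of the muscle markers was 9.46, 8.43 and 9.44. On the mutant arrays the neural means lay between 7.98 and 8.26 and the muscle means between 9.37 and 9.63. Both tissue lists were thus lowest on the array on which tau and futsch R were low, but betaTub60D and alphaTub85E were not low there. The salivary gland markers had 8.59, 8.46 and 8.29 on the wild type arrays, so they were not lowest there. The list of microtubule-binding and end-binding proteins described below was also lowest there, with 8.64, 8.01 and 8.72. Whether the tau value of that array has to do with these markers was not tested.

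Other genes of the microtubule system were described by 7 lists of 76 selected genes, of which 64 were measured by 81 probe sets. The lists do not cover the whole system. 2 of these probe sets fell and 2 rose, or 4.94%, against 4.03% of all probe sets, and the median log2 difference was −0.04, against −0.03 over all. With the replicate number as a block, 2 fell and none rose. limma called none when wild type replicate 1, or replicate 2 or 3 of the mutants, was left out, with 12 to 14 at an unadjusted p under 0.05. The count was 1 without wild type replicate 3 and 7 without wild type replicate 2. Each of the calls is given below with its list.

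The list of tau and futsch kinases and partners held 5 measured genes and 14 probe sets, of which 1 fell. It was Cdk5, a kinase that phosphorylates tau in mammals. Its log2 signal was 8.85, 9.57 and 8.76 in wild type and 7.56, 7.55 and 7.40 in the mutants, so every mutant array was lower by more than 1. Cdk5 fell by 1.56 on the log2 scale (SE 0.22, limma adjusted p = 0.0188, n = 3 each). Unlike tau, it was highest on wild type replicate 2. Its call was lost when wild type replicate 1, or replicate 2 or 3 of the mutants, was left out, at adjusted p-values of 0.0557, 0.0872 and 0.108.

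Among 15 probe sets of the list of microtubule-binding and end-binding proteins, 1 fell and none rose. It belonged to nuf, which was put on this list but is known as a partner of Rab11 in transport from recycling endosomes. nuf had 10.80, 10.38 and 10.68 in wild type and 10.01, 9.42 and 9.53 in the mutants, a log2 difference of −0.97 (SE 0.19, limma adjusted p = 0.0452). A second and dimmer nuf probe set had −0.11. The nuf call was lost when any of the 4 arrays named for cpx was left out, at adjusted p-values of 0.118 to 0.192.

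Of 15 probe sets for 14 genes of severing, folding and modifying enzymes, the group to which Atat belongs by function, 1 rose. It was kat-60L1, a katanin-like severing enzyme, with 8.09, 7.78 and 7.84 in wild type and 8.50, 8.66 and 8.44 in the mutants. The log2 difference was 0.63 (SE 0.12, limma adjusted p = 0.0427), and with the replicate block it had an adjusted p of 0.0741. Its call was also lost without any single array (0.056 to 0.162), after quantile normalization (0.0626) or centring (0.0563), with either filter on dim probe sets (0.0502 and 0.071), and with trend and robust variance (0.104).

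Of 17 kinesin probe sets, 1 rose. Kap3, the accessory subunit of kinesin-2, had 8.35, 8.59 and 8.23 in wild type and 9.25, 9.10 and 9.14 in the mutants, a log2 difference of 0.77 (SE 0.12, limma adjusted p = 0.0256). With the replicate block its adjusted p was 0.0525, and without each array but wild type replicate 2 it lay between 0.0521 and 0.119.

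The other 3 lists had no call in limma's fit. The tubulins outside the 9 genes had 4 probe sets, 1 with an unadjusted p under 0.05. gammaTub37C, a gamma-tubulin that the mother supplies to the egg, had a log2 difference of 0.48 (limma adjusted p = 0.0774) and the maternal alpha-tubulin gene alphaTub67C had 0.37. Dynein and dynactin had 10 probe sets, none with an unadjusted p under 0.05. A probe set of Dhc64C, the dynein heavy chain, had 0.79, its other probe sets had 0.06 and −0.04, and robl, a dynein light chain, had 0.34. The gamma-tubulin ring complex, which starts new microtubules, had 6 probe sets, none with an unadjusted p under 0.05, and Grip128 and Grip71 had 0.31 and −0.54.

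**Figure D4:**
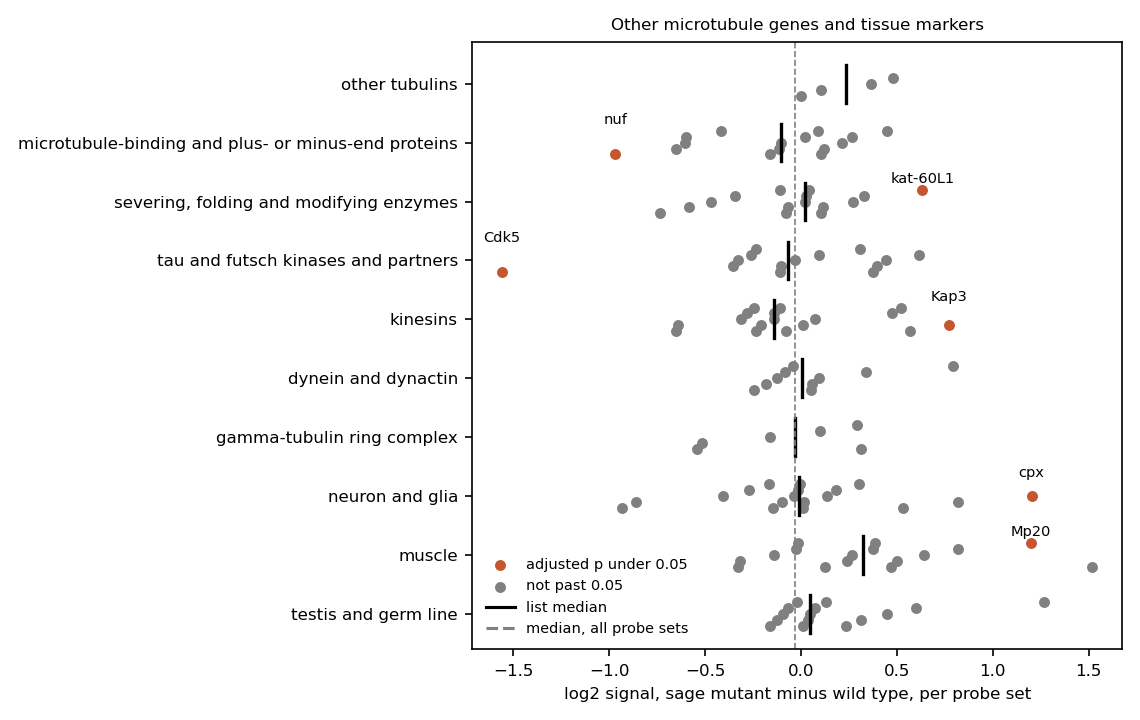
Log2 difference, sage mutant minus wild type (horizontal axis), of each probe set of the 7 lists of other microtubule genes and of 3 lists of tissue markers, with list medians as bars and the median of all probe sets (−0.03) as a dashed line. The probe sets past an adjusted p of 0.05 are named: nuf and Cdk5 lower, and kat-60L1, Kap3, cpx and Mp20 higher.

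The genes whose pattern over the 6 arrays lay nearest to that of tau were pip, CG5402, CG13738, EndoU and CG14453. Likeness was the root mean square difference of the log2 signals, each probe set centred on its own mean, and it was 0.478, 0.579, 0.59, 0.615 and 0.632. pip encodes a sulphotransferase of the salivary gland, and its probe set here had 9.30, 8.52 and 8.95 in wild type and 6.22, 5.40 and 5.61 in the mutants. The choice of these genes by their pattern fixes that they too were lower in the mutants. The ranks depended on wild type replicate 2. Without that array, a choice made after seeing the data, each of these genes lay nearer to tau than before. CG5402 then ranked 3 by distance to tau, at 0.24. pip, CG14453, CG13738 and EndoU ranked 8, 10, 13 and 15, at 0.388, 0.506, 0.555 and 0.607. The ranks are among the probe sets that name 1 gene and no member.

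**Figure D5:**
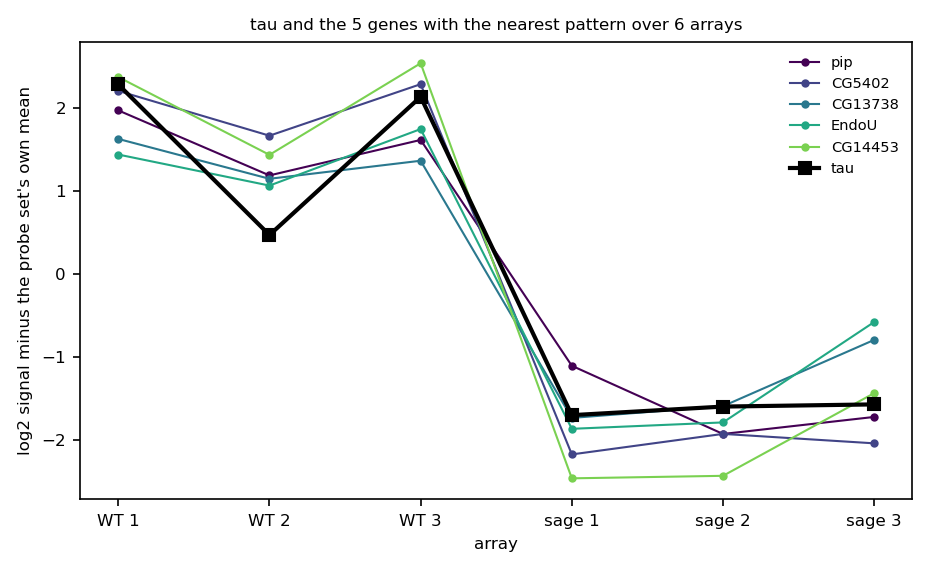
Log2 signal minus the probe set's own mean (vertical axis) on each of the 6 arrays (horizontal axis, WT for wild type and sage for the mutants) for tau, in black, and the 5 genes with the nearest pattern. tau drops more than the others on wild type replicate 2. That all 6 are lower on the mutant arrays follows from how the 5 were chosen.

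The genes next to the members on the chromosome were also examined, in the gene order of the Release 6 plus ISO1 MT assembly. Each neighbour was read by its brightest probe set alone. Of the 10 protein-coding genes nearest to tau, 5 on each side, 9 were measured and none was called, with log2 differences from −0.28 to 0.46. Around Atat, on chromosome arm 3L, 9 of 10 were measured, and 1 of them, the cuticle protein gene Cpr67B, rose by 0.79 on the log2 scale (SE 0.12, limma adjusted p = 0.0248). Over all 8 measured members, 65 of the 80 listed neighbours were measured, of which 1 rose and none fell (1.54%, against 4.03% of all probe sets). tau lies on the same arm as sage with 2319 protein-coding genes between them. betaTub85D and alphaTub85E are nearer, with 21 and 79 genes between them and sage, and alphaTub84D has 211. Of the 10 genes nearest to sage itself, 1 was called at its brightest probe set. It was ATP6AP2, a gene next to sage, named after its value was seen. ATP6AP2 fell by 3.52 on the log2 scale (SE 0.15, limma adjusted p = 0.000241). TrpRS, next to sage on the other side, had 0.04 at its brightest probe set. However, 1 of the 3 TrpRS probe sets was called, and the range of their changes was 2.10. TrpRS was also named after its values were seen.

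The control 5′ minus 3′ difference was −1.89 to −1.76 on the wild type arrays and −4.35 to −3.17 on the mutant arrays. A loss of 5′ signal and the mutation therefore cannot be told apart on these arrays. With this difference as a covariate, tau had a log2 difference of −3.43 (SE 1.39) and Atat Q −1.54 (SE 0.29). Both were less precise than without it, and the fit cannot divide the change between the 2. limma called no probe set of the array, with 1613 at an unadjusted p under 0.05. The same covariate turned betaTub60D to −0.32, alphaTub84D to −0.20 and Atat P to −0.50.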

How the data were processed

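Total RNA of 6 whole-embryo samples, kept at 25 degrees and sorted on a COPAS instrument, was labelled with a 3′ in vitro transcription kit that starts at the poly(A) tail, per the labels' protocols. The authors deposited 1 log2 signal per probe set and array. The submitters' processing notes name RMA and Partek without versions. The log2 base was taken from RMA's default and the values' range. Raw images and a genome build were not used here.

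183 control probe sets were kept apart. A model with group alone was fitted to the other 18769 by lmFit and eBayes of limma 3.58.1 (R 4.3.3). P-values were adjusted over all of them by Benjamini-Hochberg, and those under 0.05 after adjustment were called. Intervals are limma's 95% intervals, and 3 arrays a group limit the precision. Genes were named from the platform annotation, with symbols updated through RefSeq's gene table (Release 6 plus ISO1 MT). 13647 probe sets named 1 gene, 402 several and 4720 none here. The members and lists were chosen with earlier results of these data known. Every member is described. From each list, the called genes were named, or else the 2 of smallest p. The 5′ minus 3′ value is the mean over 5 control pairs.

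The sample titles number the replicates. Array deviations from their group mean correlated at 0.17 to 0.31 for equal numbers and at −0.30 to 0.14 for unequal ones. These values do not settle whether equal numbers mark paired samples. The main fit and its intervals leave the numbers out, and a replicate block was run as an alternative. The other alternatives were quantile normalization, centring, filters on dim probe sets, trend and robust variance, array weights, 1 probe set per gene, the 5′ minus 3′ covariate and leaving out each array.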

Additional observations from a re-analysis of the deposited data

How the results depend on the processing

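The precision is limited by 3 arrays a group and by dim signals: the mutant mean of tau was within the range of the larval glue genes. The array-wide count of 757 called probe sets was 2737 with array weights, 0 with the 5′ minus 3′ covariate (1613 at an unadjusted p under 0.05 in limma) and 134 to 1111 without single arrays. The replicate block gave 641, and it changed no call among the member probe sets. Counts for tau and Atat describe the values that chose them and support nothing. The 2 called member probe sets became 0 with the covariate (1 at an unadjusted p under 0.05) and 1 to 2 without single arrays, with tau lost without wild type replicate 1 or 3 and mutant replicate 2 or 3, and were 2 under the 8 other alternatives. tau and Atat Q kept their direction under all 15 alternatives each, at −3.83 to −2.93 and −1.54 to −1.21. No other member probe set was called under any alternative.

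The 4 called probe sets of other microtubule genes became 16 with array weights, 2 with the replicate block, 0 with the covariate (2 at an unadjusted p under 0.05) and 0 to 7 without single arrays. For neurons and glia, the 1 called probe set became 2, the added one being repo, a glial gene, lower, after each of centring, both filters on dim probe sets, and trend with robust variance. It became 4 with array weights, 0 when each gene had 1 probe set (3 at an unadjusted p under 0.05), 0 with the covariate (1 so) and 0 to 2 without single arrays. The 1 called muscle probe set became 2 with array weights, 0 with the covariate (3 at an unadjusted p under 0.05) and 0 to 1 without single arrays. The testis and germ line count of 0 became 1 with array weights.

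Among uncalled members the sign turned 22 times. With the covariate it turned for alphaTub84D (−0.20), alphaTub85E (0.22), betaTub60D (−0.32), Atat P (−0.50), futsch P (0.0259) and futsch Q (−0.0695). futsch Q also turned after quantile normalization (−0.0272) and after centring (−0.0628). With array weights alphaTub85E had 0.0194 and betaTub56D 0.0739. Without single arrays, and with turns in either direction, Atat P lay between −0.0298 and 0.147, futsch Q between −0.0252 and 0.0489, futsch R between −0.14 and 0.396, alphaTub85E between −0.171 and 0.0822, and betaTub56D between −0.0821 and 0.064. The cause of these turns was not tested.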
